A study of Mus musculus with 8 samples.

Results

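The genes described here encode enzymes and cofactors of DNA methylation and of Polycomb repression: Uhrf1, Dnmt1, Dnmt3a, Dnmt3b, Tet2, Tet3, Ezh2, Suz12 and Eed. They were measured in bone marrow cells sorted on Cd11b, an integrin subunit of granulocytes and monocytes. Every probe set annotated to 1 of these 9 genes was taken, 24 of the 45037 tested, and the 9 genes stand among 18193 with a single gene symbol. Uhrf1, Dnmt1 and Ezh2 were set as E2F-linked genes against the other 6. The rule takes probe sets by gene name and sets no threshold on measured values.

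The study compared 4 control samples of genotype E2F1-/-2+/+3f/f with 4 experimental samples of genotype Mxcre;E2F1-/-2-/-3f/f. All mice were thus E2f1 null with floxed E2f3, on a mixed FVB and C57BL6 background, and were 8 weeks old. In the experimental group E2f2 was null as well, and Mx-Cre, a recombinase driven by an interferon-responsive promoter, was present to delete E2f3. Mice of both groups were given pIpC, a synthetic RNA duplex that triggers interferon, as 5 doses of 250 µg, and were killed 24 h after the last. No control carried Cre, so effects of Cre and of the E2f genotype cannot be told apart. Whether each sample is a separate animal is not stated in the labels, so the p-values reflect only the variation among these 8 samples, part of which may be technical.

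Methylation of cytosine in CpG pairs is copied after each round of DNA replication by DNMT1, which UHRF1 brings to newly made DNA that carries the mark on a single strand. DNMT3A and DNMT3B place new methylation, and TET2 and TET3 oxidise it on the way to its removal. Polycomb repressive complex PRC2 methylates the tail of a core histone at silent genes, with EZH2 as its catalytic subunit and SUZ12 and EED as the core partners it needs. UHRF1, DNMT1 and EZH2 are known as E2F-regulated genes of dividing cells, and in blood formation DNMT3A, TET2 and EZH2 are known for mutations in myeloid disease.

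The deposited values are log2 expression after RMA, and a difference of 1 on this scale is a 2-fold change. The median of the tested probe sets was 5.01 to 5.04 in all 8 arrays. Itgam, which encodes the sort antigen Cd11b, gave 11.58 in the 4 controls and 11.54 in the 4 experimental arrays. The neutrophil marker genes S100a8 and S100a9 lay near the top of the scale at 14.36 and 14.46 over all arrays. Genes of other cells were also seen. The summed B cell marker level, as the log2 of summed linear values over 14 genes, was 11.03 to 12.06 in controls and 10 to 10.54 in experimental samples. E2f2 at 1455790_at had a mean of 7.92 ± 0.19 in the control group and 7.26 ± 0.21 in the experimental group (SD, n = 4 each, difference -0.66 ± 0.13 SE, limma adjusted p = 0.0351), and its other probe set, 1436434_at, gave -0.55 (adjusted p = 0.107). Neither E2f3 probe set passed (0.11 and 0.29), nor any of the 3 of E2f1 (0.24 to 0.58), and where these probes lie relative to deleted exons was not analysed here, so they check nothing about the deletions. By Xist and Eif2s3y, 2 controls and 1 experimental sample were male. The sample codes had 2 styles, a digit then a letter for replicates 1 and 2 and a letter then a digit for replicates 3 and 4, and each style held both groups.

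Maintenance methylation genes read higher in the experimental samples, by about 1.4-fold to 1.5-fold at all 5 probe sets of Uhrf1 and Dnmt1, while Ezh2 and the other PRC2 genes read at or slightly below the control level. One probe set of Dnmt3a rose and the rest of the 24 did not pass the test over all probe sets. That single call among 24 probe sets compares with 2.58% of all 45037 probe sets called in either direction (1.03% higher, 1.55% lower). With each gene read by its brightest probe set, none of the 9 passed, against 3.47% of all genes. With replicate number as a block, 5 of the 24 were called, all higher: 1 of Uhrf1, 3 of Dnmt1 and the same one of Dnmt3a, against 2.22% of all probe sets called higher in that fit (2.84% lower, 5.06% in all). Code style as a block also called 5, all higher, against 2.52% (3.21% lower, 5.73% in all).

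Uhrf1 encodes the reader of hemimethylated DNA that recruits DNMT1. Its brighter probe set, 1415810_at, gave 9.47, 9.15, 9.54 and 9.69 for the controls and 9.87, 9.77, 10.25 and 10.18 for the experimental samples. All 4 experimental arrays lay above all 4 controls. The difference was 0.55 ± 0.15 (SE, n = 4 per group, 1.47-fold), with an adjusted p of 0.0912 in the limma fit, and 0.0235 with replicate number as a block. The other probe set, 1415811_at, gave 8.44, 8.23, 8.61 and 8.48 in the 4 controls and 8.65, 8.76, 9.42 and 8.83 in the 4 experimental arrays. These also did not overlap, the lowest experimental array lying just above the highest control, and the difference of 0.48 ± 0.17 passed in neither fit (adjusted p = 0.176, and 0.0648 with the block).

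Dnmt1 encodes the maintenance methyltransferase itself, and its 3 probe sets moved alike. At 1422946_a_at the controls read 9.81, 9.65, 10.22 and 10.15 and the experimental samples 10.22, 10.39, 10.65 and 10.84. The highest control and the lowest experimental array were equal to 2 decimals. The difference was 0.57 ± 0.17 (SE, 1.48-fold, adjusted p = 0.119; 0.025 with the replicate block).

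At 1435122_x_at, whose suffix marks probes that may also match other sequences, Dnmt1 gave 9.63, 9.43, 10.05 and 9.83 in the 4 controls and 10.11, 10.18, 10.29 and 10.58 in the 4 experimental arrays. Again no arrays overlapped, with a difference of 0.56 ± 0.15 (adjusted p = 0.0962; 0.039 with the block). The dimmest, 1447877_x_at, gave 0.54 ± 0.15 (adjusted p = 0.106; 0.0398 with the block), from 7.91 ± 0.16 in controls to 8.45 ± 0.30 (SD). Here 1 control array and 1 experimental array met at 8.08. Of the 24 probe sets, 5 were higher without overlap and none lower, against 4.64% and 6.15% of all probe sets.

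**Figure D1:**
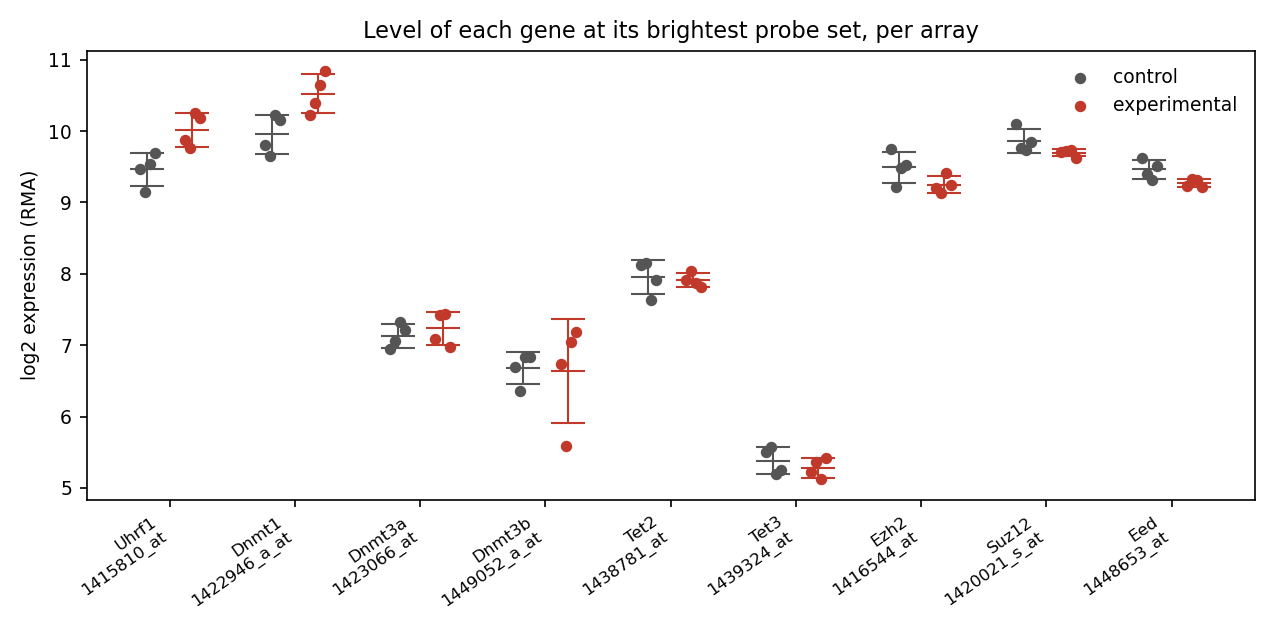
Log2 expression (RMA) of each of the 9 genes at its brightest probe set, 1 point per array, control in grey and experimental in red, with horizontal lines at the mean and bars of 1 SD (n = 4 each). Uhrf1 and Dnmt1 sit higher in the experimental arrays, Ezh2, Suz12 and Eed overlap or sit slightly lower, and 1 experimental array of Dnmt3b reads 5.59; heights of different probe sets are not comparable.

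Uhrf1 and Dnmt1 differed by similar amounts in both sample code styles. The brighter Uhrf1 probe set gave 0.51 for replicates 1 and 2 and 0.60 for replicates 3 and 4, and Dnmt1 at 1422946_a_at gave 0.58 and 0.56. In the fits that leave out 1 array, their differences stayed positive at all 5 probe sets (0.31 to 0.67) and none passed (adjusted p = 0.0547 to 0.39). With inferred sex as a block the adjusted p was 0.161 for Uhrf1 at 1415810_at and 0.19 for Dnmt1 at 1422946_a_at. For beta-actin the 3' to 5' signal ratio, which rises as RNA degrades, did not overlap between the groups either, with log2 ratios of 0.34 to 0.54 in experimental samples and 0.27 to 0.32 in controls. The same ratio for Gapdh overlapped, at -0.16 to 0.03 in experimental samples and -0.14 to -0.09 in controls. The part of RNA quality in these differences was not tested. In sorted bulk samples a shift in the share of cells of a type and a change of RNA per cell cannot be told apart.

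The 3 E2F-linked genes did not all read higher. Ezh2, the catalytic PRC2 gene, has 1 probe set, 1416544_at. Its controls read 9.75, 9.22, 9.48 and 9.53 and its experimental samples 9.20, 9.13, 9.41 and 9.25. The groups overlapped, and control replicate 1 was the highest array. The difference was -0.25 ± 0.12 (SE, adjusted p = 0.345, 95% interval -0.52 to 0.03), which holds no rise of the size seen for Uhrf1 or Dnmt1. Without control replicate 1 the difference was -0.16 (adjusted p = 0.588), and over the 8 fits that leave out 1 array it was -0.34 to -0.16.

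As log2 ratios within each array, Uhrf1 over Ezh2 lay between -0.27 and 0.17 in controls and between 0.65 and 0.93 in experimental samples, a shift of 0.80. Dnmt1 over Ezh2 lay between 0.07 and 0.74 in controls and between 1.02 and 1.59 in experimental samples, a shift of 0.81. Both ratios were higher in 4 of 4 experimental arrays than in any control. These ratios were chosen after the values were seen, so they restate the levels above as a description and carry no test.

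Over the brightest probe set of each gene, the 3 E2F-linked genes had a median difference of 0.55 and a mean of 0.29, and the other 6 a median and a mean of -0.07. All 18193 genes had a median of 0.01. The mean difference of the E2F-linked genes exceeded that of the others by 0.36, with 0.42 within replicates 1 and 2 and 0.31 within replicates 3 and 4. This is a description of 9 chosen genes and carries no test.

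**Figure D2:**
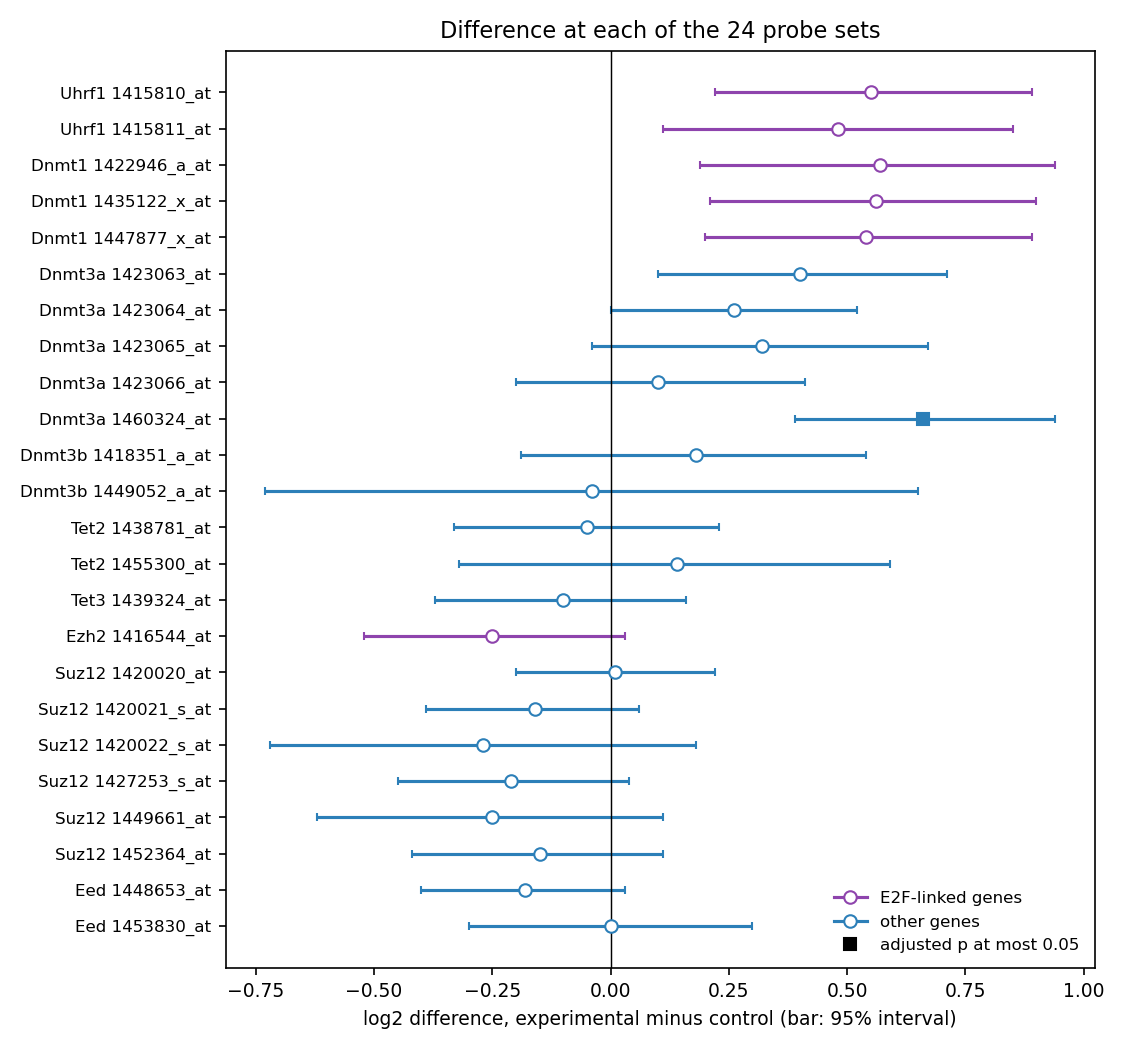
Log2 difference, experimental minus control, at each of the 24 probe sets with its 95% interval, E2F-linked genes in purple and the others in blue, a filled square marking adjusted p of at most 0.05. All 5 probe sets of Uhrf1 and Dnmt1 lie between 0.48 and 0.57, Ezh2 lies at -0.25, and the filled square is Dnmt3a at 1460324_at (0.66).

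The windows around the gene starts of these genes were searched for E2F-type sites. The reference table (RefSeq, GRCm38.p6) gives 250 bases before and 50 after each start, and all 9 genes matched, with 14 windows. The words TTTCCCGC, TTTCGCGC, TTTGCCGC and TTTGGCGC were searched on both strands. They occurred in 4 of the 14 windows, 1 for each of the 3 E2F-linked genes and 1 for Suz12 among the other 6. Such words occurred in 2.26% of all 32851 windows of the same length and in 2.85% of the 21263 windows of protein-coding genes. The latter had a median of 13 CpG pairs and the 4 windows had 31 to 41, so these shares are not matched for CpG content. The 4 windows are shown because they set genes whose levels read higher beside genes that carry the same kind of word and did not, with the matched words in capitals and written 5' to 3' on the strand of the gene.
Uhrf1, chr17:56304063-56304362, plus strand: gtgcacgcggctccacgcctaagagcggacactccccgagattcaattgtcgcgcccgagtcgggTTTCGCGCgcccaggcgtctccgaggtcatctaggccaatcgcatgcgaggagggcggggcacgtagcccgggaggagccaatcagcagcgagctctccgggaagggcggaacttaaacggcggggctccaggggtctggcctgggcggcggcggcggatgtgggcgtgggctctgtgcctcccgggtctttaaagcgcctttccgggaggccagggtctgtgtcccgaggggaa
Dnmt1, chr9:20952574-20952873, minus strand: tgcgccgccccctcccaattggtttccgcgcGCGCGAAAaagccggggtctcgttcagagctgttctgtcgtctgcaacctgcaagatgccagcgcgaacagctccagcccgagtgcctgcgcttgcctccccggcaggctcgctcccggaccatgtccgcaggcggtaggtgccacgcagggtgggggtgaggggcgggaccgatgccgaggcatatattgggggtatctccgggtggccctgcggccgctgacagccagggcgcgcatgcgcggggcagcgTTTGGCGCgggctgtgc
Ezh2, chr6:47594981-47595280, minus strand: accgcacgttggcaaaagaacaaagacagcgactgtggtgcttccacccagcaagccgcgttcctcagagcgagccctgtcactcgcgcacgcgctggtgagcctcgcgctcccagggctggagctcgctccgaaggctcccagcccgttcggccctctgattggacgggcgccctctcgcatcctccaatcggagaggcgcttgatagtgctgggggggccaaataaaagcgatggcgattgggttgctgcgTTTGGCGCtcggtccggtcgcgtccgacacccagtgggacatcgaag
Suz12, chr11:79992856-79993155, plus strand: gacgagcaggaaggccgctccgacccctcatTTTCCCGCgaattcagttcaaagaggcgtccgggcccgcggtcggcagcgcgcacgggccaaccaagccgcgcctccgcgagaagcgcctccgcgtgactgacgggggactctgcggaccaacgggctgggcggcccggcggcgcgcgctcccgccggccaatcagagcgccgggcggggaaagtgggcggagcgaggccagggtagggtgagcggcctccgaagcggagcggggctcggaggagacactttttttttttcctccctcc

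Counted from the gene start, the word in the Uhrf1 window began at -185. The Dnmt1 window held a pair of words, one on the opposite strand beginning at -219 (GCGCGAAA, the reverse complement of TTTCGCGC) and one on the gene strand beginning at 34. The Ezh2 word began at 4 and is the same TTTGGCGC as the second of Dnmt1, and the Suz12 word began at -219. Such words thus stood in windows of genes that read higher and of genes that did not. Uhrf1 has 1 further start window in the table and Dnmt1 has 2, none with an E2F word. The words TTTGAA and TTCGAA of the cell cycle homology region, known from late cell cycle genes, were also searched on both strands and occurred in windows of Dnmt1, Dnmt3b, Suz12 and Eed and in 19.2% of all windows. A match describes letters in the window and not binding by a factor.

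The de novo enzyme gene Dnmt3a gave different answers at its 5 probe sets, all of which were designed from 1 sequence record. At 1460324_at the controls read 6.91, 6.81, 6.89 and 6.64 and the experimental samples 7.54, 7.68, 7.17 and 7.52. Every experimental array lay above every control. The rise was 0.66 ± 0.12 (SE, 1.58-fold, adjusted p = 0.026), and the within-style values were 0.75 (replicates 1 and 2) and 0.58 (replicates 3 and 4).

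The call of Dnmt3a at 1460324_at was kept without experimental replicate 2 or 3 and lost without any other single array, namely any of the 4 controls or the first or last experimental replicate. Over the 8 fits the adjusted p was 0.0156 to 0.0814, with a difference of 0.60 to 0.77 throughout. The brightest probe set, 1423066_at, gave 7.13 ± 0.17 in the 4 controls and 7.24 ± 0.23 in the 4 experimental arrays (SD, difference 0.10 ± 0.14, adjusted p = 0.759). The remaining probe sets gave 0.40 at 1423063_at (adjusted p = 0.163), 0.26 at 1423064_at (0.293) and 0.32 at 1423065_at (0.349), with overlapping groups. All 5 differences were above 0. Which transcript forms each probe set reads was not analysed here, and the differences between the probe sets were not tested.

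Dnmt3b, the other de novo enzyme gene, gave 6.69, 6.36, 6.83 and 6.83 in the 4 controls and 6.73, 5.59, 7.05 and 7.18 in the 4 experimental arrays at 1449052_a_at. Experimental replicate 2 stood below all other arrays and the remaining 3 lay within or just above the control range. The difference of -0.04 ± 0.31 (adjusted p = 0.966) became 0.31 without that array (adjusted p = 0.318). The dimmer probe set 1418351_a_at showed the same low array, at 5.47, with a difference of 0.18 ± 0.16 (adjusted p = 0.644). The intervals of -0.73 to 0.65 and -0.19 to 0.54 leave room for a change in either direction.

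The oxidising enzyme genes showed no difference past the threshold. Tet2 gave 8.13, 8.15, 7.64 and 7.92 in the 4 controls and 7.92, 8.04, 7.87 and 7.82 in the 4 experimental arrays at 1438781_at, a difference of -0.05 ± 0.13 (adjusted p = 0.894). Its second probe set, 1455300_at, gave 0.14 ± 0.20 (adjusted p = 0.79). There the arrays fell by code style rather than by group, with 7.38 to 7.72 in replicates 1 and 2 of both groups and 8.04 to 8.25 in replicates 3 and 4. Tet3, read by 1439324_at near the array median, was 5.38 ± 0.19 in controls and 5.28 ± 0.14 in experimental samples (SD, difference -0.10 ± 0.12, adjusted p = 0.722). Its 95% interval of -0.37 to 0.16 does not reach a 1.5-fold change.

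The PRC2 core genes read slightly lower, without a call. Suz12, the scaffold of the complex, has 6 probe sets, and the brightest, 1420021_s_at, gave 10.10, 9.77, 9.73 and 9.85 in the 4 controls and 9.71, 9.72, 9.74 and 9.62 in the 4 experimental arrays. Control replicate 1 was again the highest array, and the groups overlapped. The difference was -0.16 ± 0.10 (adjusted p = 0.464, 95% interval -0.39 to 0.06). Among the bright Suz12 probe sets, 1427253_s_at gave -0.21 and 1452364_at gave -0.15. The dimmer 1420022_s_at, 1449661_at and 1420020_at, with levels of 5.03 to 5.98 near the array median, gave -0.27, -0.25 and 0.01. Adjusted p over these 5 was 0.386 to 0.98. Without control replicate 1 the difference was -0.08 at 1420021_s_at, -0.14 at 1427253_s_at, and -0.08 at both 1452364_at and 1420022_s_at.

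Eed encodes the subunit that reads the Polycomb mark. At 1448653_at its controls read 9.63, 9.40, 9.31 and 9.51 and its experimental samples 9.23, 9.33, 9.32 and 9.22. The groups overlapped, since control replicate 3 lay among the experimental arrays. The difference was -0.18 ± 0.10 (adjusted p = 0.369, 95% interval -0.40 to 0.03), and -0.13 without control replicate 1. A second probe set, 1453830_at, was dim at 3.24 in both groups and shows nothing about Eed at that level.

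**Figure D3:**
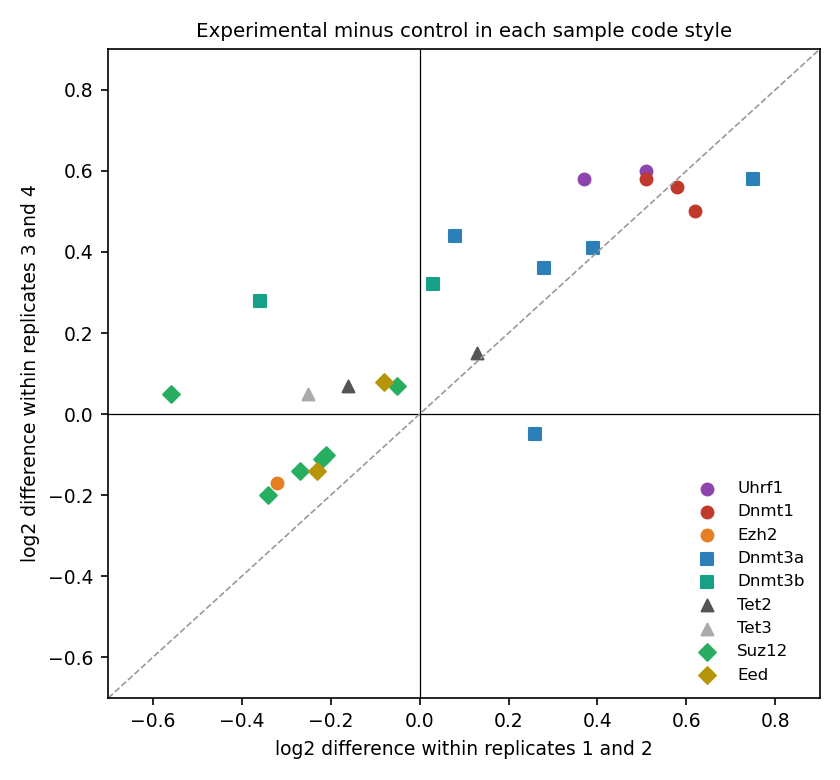
Log2 difference, experimental minus control, within replicates 1 and 2 (x axis) and within replicates 3 and 4 (y axis) for the 24 probe sets, coloured by gene, with the dashed line marking equal differences. Uhrf1 and Dnmt1 lie at 0.37 to 0.62 and 0.50 to 0.60, Ezh2 lies below 0 in both, and Dnmt3b at 1449052_a_at lies at -0.36 and 0.28.

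None of the 24 probe sets differed in effect between the code styles by the limma interaction test (lowest adjusted p = 0.618). At an unadjusted p of 0.05, 1 of the 24 did, Suz12 at 1449661_at with -0.56 against 0.05, and so did 3588 of all 45037 probe sets. The adjusted test was passed by 5 of all 45037.

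Among 20 measured partners of DNA methylation, 4 rose and none fell, against 1.53% of all genes called higher and 1.95% lower, and their median difference was 0.02 beside 0.01 for all genes. The list was written with earlier results of these data known. At an unadjusted p of 0.05, 4 were higher and 5 lower. Without 1 array 2 to 4 rose, the 2 without control 1, 2 or 4, and 0 to 1 fell, the 1 without experimental 2. Hells, a chromatin remodeller that DNA methylation needs, gave 8.26, 7.74, 8.11 and 8.35 in the 4 controls and 9.17, 9.09, 9.11 and 9.17 in the 4 experimental arrays. Its experimental arrays were all above the controls and close to each other, and it rose by 1.02 ± 0.13 (SE, 2.03-fold, adjusted p = 0.00672), passing in all 8 fits that leave out 1 array.

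Cdca7, which encodes the zinc finger partner that activates HELLS, gave 10.46, 10.38, 10.60 and 10.56 in the 4 controls and 11.13, 11.46, 11.06 and 11.02 in the 4 experimental arrays. It rose by 0.67 ± 0.12 (adjusted p = 0.0197). The rise did not pass the threshold without control 1, 2 or 4, its adjusted p ranging from 0.0212 to 0.0694 in the 8 fits that leave out 1 array. Mbd4, a glycosylase that repairs mismatches arising at methylated CpG, rose by 0.88 ± 0.18 (adjusted p = 0.0349), from 7.56 ± 0.29 to 8.45 ± 0.29 (SD). Among the fits without 1 array it passed in 2 of 8, those without control 3 and without experimental 2 (range of adjusted p 0.0266 to 0.112). Its groups did not overlap.

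Dnmt3l, a cofactor of the de novo enzymes without catalytic activity of its own, gave 4.76, 4.82, 4.93 and 4.83 in the 4 controls and 5.52, 6.14, 5.73 and 5.80 in the 4 experimental arrays. It rose by 0.96 ± 0.13 (adjusted p = 0.00787) and passed in all 8 fits without 1 array, from a control level below the array median. Uhrf2, the paralogue of Uhrf1, differed by -0.03 ± 0.12 (adjusted p = 0.943). Tet1 differed by 0.10 ± 0.11 (adjusted p = 0.72) at a dim probe set (mean 5.48), and 3 of its 4 probe sets differed the other way.

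**Figure D4:**
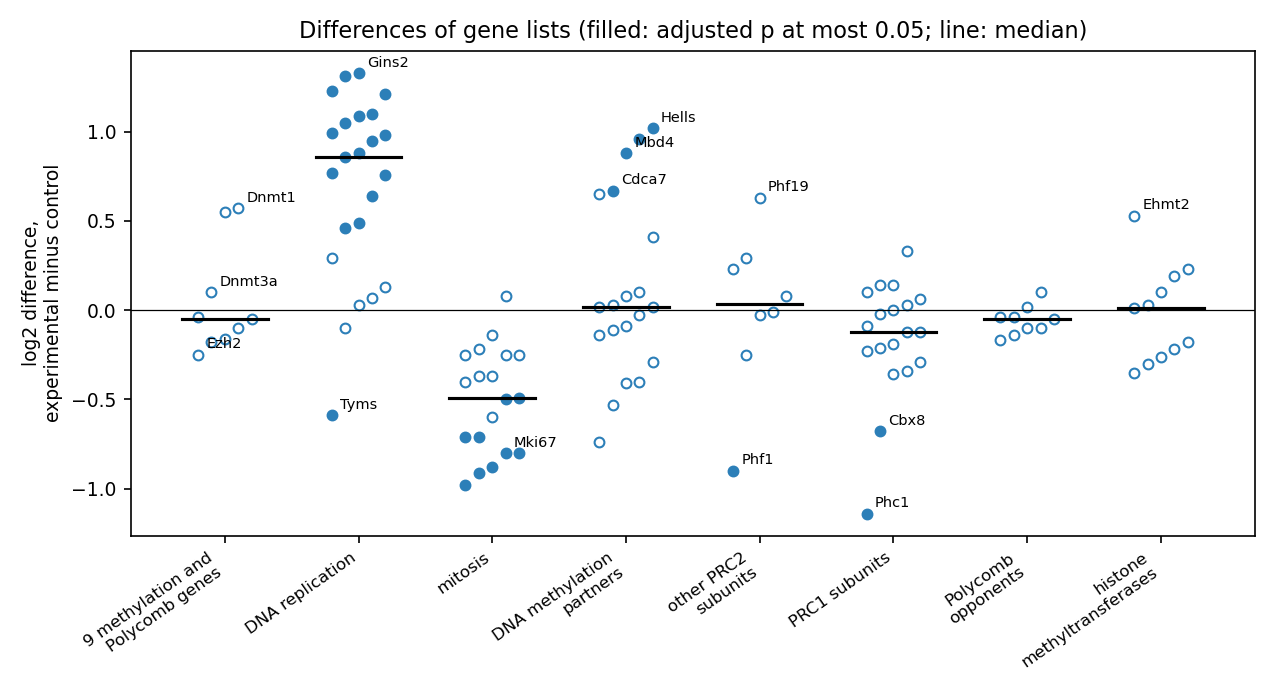
Log2 difference, experimental minus control, of each measured gene by its brightest probe set, for the 9 genes and for 7 lists of related genes, with filled points at an adjusted p of at most 0.05 and lines at the medians. DNA replication genes lie high (median 0.86), mitosis genes low (median -0.49), and the other lists centre between -0.12 and 0.03 with single genes apart from the rest.

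Of 8 further PRC2 subunits, 1 fell and none rose (at an unadjusted p of 0.05, 3 were higher and 1 lower), with a median of 0.03. Phf1, which encodes an accessory subunit that guides PRC2 to chromatin, gave 7.99, 8.24, 8.18 and 8.40 in the 4 controls and 7.21, 7.41, 7.19 and 7.38 in the 4 experimental arrays. It fell by 0.90 on the log2 scale (SE 0.11, 1.87-fold, adjusted p = 0.00569) and passed in all 8 fits without 1 array. Its relative Phf19, named after its values were seen, had a difference of 0.63 ± 0.16 the other way (adjusted p = 0.0821; 0.0275 with the replicate block), without overlap. Ezh1, the paralogue of Ezh2, differed by -0.03 ± 0.11 (adjusted p = 0.938).

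Among 19 PRC1 subunits, the complex that binds and modifies chromatin beside PRC2, 2 fell and none rose (at an unadjusted p of 0.05, 4 lower and 0 higher), with a median of -0.12. Phc1, a polyhomeotic subunit, gave 6.34, 6.27, 6.38 and 6.43 in the 4 controls and 4.82, 4.93, 5.11 and 6.01 in the 4 experimental arrays. Experimental replicate 4 lay nearer the controls than the other 3. Phc1 fell by 1.14 on the log2 scale (SE 0.23, adjusted p = 0.0329), and it kept the call in 2 of the 8 fits that leave out 1 array, those without experimental 2 and without experimental 4 (range of adjusted p 0.00239 to 0.0942). Cbx8, a chromodomain subunit, fell by 0.68 (SE 0.15, adjusted p = 0.0483) and passed in those fits only without control replicate 4 (adjusted p = 0.0461 to 0.116).

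Of 9 genes that oppose Polycomb, among them the histone demethylase genes Kdm6a and Kdm6b, none passed in the limma fit, nor at an unadjusted p of 0.05. Their differences ran from -0.17 to 0.10, with Asxl1 at -0.05 ± 0.10 and Kdm6b at -0.17 ± 0.20. For Asxl1, 2 of its 3 probe sets differed the other way. Of 11 other histone methyltransferase genes none passed (at an unadjusted p of 0.05, 1 was higher and 2 lower). Ehmt2, an enzyme of repressive histone methylation, had a difference of 0.53 ± 0.21 (adjusted p = 0.24, and 0.0463 with the replicate block). Kmt5a had one of -0.18 ± 0.08 (adjusted p = 0.305), and 2 of its 4 probe sets differed the other way.

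Genes of cell division moved in these samples as well. Of 23 DNA replication genes 17 rose and 1 fell (Tyms), with a median of 0.86, for example Cdc6 (1.05 ± 0.09) and Orc1 (1.31 ± 0.11), which load the replicative helicase. Of all genes, 1.53% were called higher and 1.95% lower. Without 1 array 14 to 16 of the replication genes rose and 0 to 1 fell. Tyms was read at a dim probe set (mean 5.33), and its fall did not pass without control 4 (adjusted p = 0.0505). Of 19 mitosis genes 9 fell and none rose (14 lower and 0 higher at an unadjusted p of 0.05; 5 to 9 fell without 1 array, the 5 without control 1, 3 or 4 or experimental 4), with a median of -0.49, for example Nusap1 (-0.91 ± 0.11), which bundles spindle microtubules. The Uhrf1 and Dnmt1 differences of 0.55 and 0.57 lay below the replication median, and that of Ezh2 lay between the medians of the 2 lists. Their relation to cell division was not tested.

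Markers of other cell types moved with the groups in part. Of 14 B cell genes 7 fell and none rose (11 lower and 0 higher at an unadjusted p of 0.05; 4 to 7 fell without 1 array, the 4 without control 2 or 4), among them Cd79a and Ms4a1, and their summed level did not overlap between the groups, as given above. Of 6 megakaryocyte genes 2 fell (summed level 9.71 to 10.26 in controls and 9 to 9.60 in experimental samples). Of 9 erythroid genes none passed (2 higher and 0 lower at an unadjusted p of 0.05; 1 higher with the replicate block), with summed levels of 11.58 to 12.04 in controls and 11.68 to 13.29 in experimental samples. Monocyte and macrophage genes (0 of 10 passed, 0 higher and 2 lower unadjusted) summed to 12.34 to 13.09 and 12.22 to 12.66. Of 13 neutrophil genes 1 fell, Csf3r, with sums of 17.17 to 17.31 and 17.18 to 17.26. Stem and progenitor genes (0 of 9 passed, 0 higher and 4 lower unadjusted; 2 lower with the replicate block) summed to 11.27 to 11.76 and 11.12 to 11.56. The part of these cells in the values of the 9 genes was not tested.

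Dendritic cell genes (2 of 8 fell, Siglech and Cd209a, and 1 without control 2, where Siglech had an adjusted p of 0.0501) summed to 10.74 to 11 in controls and 9.40 to 10.90 in experimental samples. T and NK cell genes (0 of 10 passed, 4 higher and 0 lower unadjusted; 2 higher with the replicate block and without experimental 2, 1 without control 3) summed to 10.73 to 12.61 and 11.75 to 12.40. The B cell regulators Pax5 and Ebf1 were dim, at 5.01 and 4.81 over all arrays, and no marker is at 0 on this scale. Both read lower in the experimental arrays without overlap and without a call in the limma fit. Pax5 differed by -0.35 ± 0.11 (adjusted p = 0.149) and Ebf1 by -1.29 ± 0.33 (adjusted p = 0.0804; 0.0124 with the replicate block).

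Uhrf1 was also set beside 8721 other genes with a mean of at least 6, with Riken, Gm-number and predicted loci left out. They were compared by the shape of the profile, as the root mean square difference between mean-centred log2 values over the 8 arrays. The nearest were Slc38a1, an amino acid transporter gene (0.046), Slc39a6, a zinc transporter gene (0.073), and Sumo3, which encodes a ubiquitin-like modifier (0.085), against a median of 0.38. Uhrf1 stood here because no gene passed at its brightest probe set. The 8 arrays share the 2 groups and the 2 code styles, so a similar shape is a description only.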

How the data were processed

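Biotin-labelled cRNA from 2.5 µg of total RNA of Cd11b-sorted cells, 4 control and 4 experimental samples, was hybridised to Affymetrix mouse arrays. The deposited table holds log2 values per probe set made by the authors with RMA, per the submitters' processing notes (version not given in the sources used here). Of 45101 probe sets, 64 Affymetrix controls were left out, and the platform annotation gave 34945 a single symbol, 932 more than 1 and 9160 no symbol. Each gene was read by its brightest probe set, by mean over the arrays. Differences were fitted with limma 3.58.1 in R 4.3.3 (lmFit, eBayes, group only), with Benjamini-Hochberg adjustment over 45037 probe sets and a threshold of 0.05. The fit was also run on simulated data with independent noise and no code style or sex structure. Its outcome is not given here, so nothing about power for the differences described is drawn from it. The number of arrays limits precision.

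The 9 genes and the gene lists (206 genes, 188 measured) were chosen with earlier results of these data known. The text names every probe set of the 9 genes, from each list up to 6 genes with the smallest p past the threshold or the 2 brightest, and the 3 profiles nearest to a gene that passed (Uhrf1 where none did). Other list genes, such as paralogues, were picked with their values in view. Same-numbered arrays deviated together from their group means (r = 0.20 to 0.26 in all 4 pairs). Arrays of other numbers in the same code style did so about as much (r = 0.14 to 0.26), so these values do not show pairing by number. The labels state no pairing, and replicate number was used as a block only in an alternative fit. Alternatives were centring, quantile normalization, level filters, a trended robust prior, array weights, other probe set choices, replicate, code style and sex blocks, within-style values and leaving out each array.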

Additional observations from a re-analysis of the deposited data

How the results depend on the processing

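The number of probe sets called (1162) was 2277 with the replicate block, 2582 with code style as a block and 663 with inferred sex as a block, and lay between 395 (without control replicate 2) and 1744 (without experimental replicate 2) when 1 array was left out. The number of the 24 probe sets called (1, by limma) was 5 with the replicate block and 5 with the code style block. It was 0 to 1 without 1 array, and 0 without any 1 of the controls and without the first or last experimental replicate, where 7 to 9 had an unadjusted p of at most 0.05. In the limma fit with group only, 8 of the 24 had such a p. There Dnmt3a at 1423064_at, with an unadjusted p of 0.0496, ranked 7628 among all 45037 probe sets, so such values were common. The share of all probe sets was not counted in the fits without 1 array. The excess of the E2F-linked over the other genes (0.36) was 0.27 to 0.42 over the alternatives that kept the brightest probe set of every gene. It was smaller with other probe set choices, at 0.26 with the mean over the probe sets of a gene and 0.23 with the most variable one. The filter at a mean of at least 6 left out Tet3 (5.33), so no excess was computed there. Some differences changed sign, none of them called in either setting. Dnmt3b at 1449052_a_at (-0.04) was 0.06 with array weights, 0.01 without control replicate 3 or 4, -0.22 to 0.31 without an experimental replicate (the ends without replicates 4 and 2), 0.28 within replicates 3 and 4 and 0.07 as the mean of its probe sets. Tet2 at 1438781_at (-0.05) was 0.01, 0.02 and -0.15 without control replicate 1, 2 and 3, 0.07 within replicates 3 and 4, 0.04 as the mean of its probe sets and 0.14 at its most variable one. Suz12 at 1420020_at (0.01) was -0.02 with the sex block and without control replicate 1, -0.01 and -0.04 without experimental replicate 3 or 4 and -0.05 within replicates 1 and 2. Within replicates 3 and 4, Dnmt3a at 1423066_at (0.10) was -0.05, Tet3 (-0.10) was 0.05 and Suz12 at 1449661_at (-0.25) was 0.05. The cause of these shifts was not tested. Signal near the array median limits the Tet3 value and the dim probe sets of Suz12 and Eed.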
